A study of Magallana angulata with 8 samples.

Results

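Heme is made from glycine and succinyl-CoA in a chain of 8 enzyme steps that begins and ends in the mitochondrion and runs through the cytosol in between. 5-aminolevulinate synthase (ALAS) catalyzes the first step and is the regulated, rate-limiting enzyme in animals. Delta-aminolevulinic acid dehydratase (ALAD) joins pairs of aminolevulinate into porphobilinogen, and porphobilinogen deaminase (PBGD) links porphobilinogen into hydroxymethylbilane. The later enzymes close the ring, trim its side chains, oxidize it and insert iron. Porphyrins that leave this chain before iron is inserted color the shells of some mollusks, and the mantle is the tissue that lays down the shell.

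The genes were found by a text search of the deposited annotation for porphobilinogen, aminolevulin, uroporphyrinogen, coproporphyrinogen, protoporphyrinogen or ferrochelatase. The search returned 9 of the 25647 genes, and they covered all 8 steps with 1 gene each except PBGD, which had 2. All 9 had reads in all 8 libraries and all 9 passed the filter for testing, a mean of at least 1 RPKM (reads scaled to the length of the gene and to the reads of the library), as did 20123 genes in all. The PBGD gene OYG_10022618_10024381 was named in the rule because it was chosen from its high against low Cu values in both pairs of mantle libraries. Its change in that comparison is therefore given as a description with no test.

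The libraries came from the gills and the mantle of adult Fujian oysters, *Crassostrea angulata*, with high (H) or low (L) body Cu. M2 and G2 were mantle and gill of oysters held in tanks with 30 µg/L added Cu over 30 days, and M1 and G1 were mantle and gill of oysters taken directly from the farm. Each library was 1 pool of 6 oysters, so each condition had 1 library, and the exposed and the farm oysters were the only repeat of high against low Cu. H and L are the extremes of tissue Cu among the oysters sampled in each group and were not a treatment, and the Cu exposure cannot be told apart from 30 days of tank life. The results of the paper describe both tissues as pooled from the same selected oysters, whereas its methods name gills or mantles. Whether the mantle and the gill libraries of a class shared oysters is therefore not certain.

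Recovered reads were between 2015375 and 2589524 per library. M2-L stood apart from the other libraries, with 33.1% of its reads in its 100 most abundant genes and a median log2 level of 2.84 over the genes tested, against 3.25 to 3.44 in the other 7. The median over the tested genes of the log2 difference, H minus L, was 0.317 in M2, 0.028 in M1, 0.095 in G2 and 0.037 in G1. Of 36 tested gill markers of motile cilia, 33 were lower in mantle than in gill in all 4 oyster pools. Of 34 tested mantle markers, such as tyrosinase and perlucin, 16 were higher in mantle than in gill in all 4 pools, and 9 were lower in mantle in all 4. Sums of markers took in all matched genes, tested or not, which were 60 for mantle, 42 for gill and 9 for muscle. The mantle markers summed to 2226 RPKM in M2-H, 1333 RPKM in M2-L, 789 RPKM in M1-H and 716 RPKM in M1-L. In the gills they summed to 673 to 840 RPKM, so these sums did not set the farm mantles apart from gill. Muscle markers summed to 2930 RPKM in M2-H, 3509 RPKM in M2-L, 5909 RPKM in M1-H and 4258 RPKM in M1-L, against 760 to 1542 RPKM in the gills. These are bulk tissues, in which fewer cells of a type and less RNA per cell cannot be told apart.

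ALAS (OYG_10021885_10008058, annotated as the erythroid-specific mitochondrial form) was the most abundant of the enzymes on average, at 129 RPKM over the 8 libraries. It had 463 RPKM in M1-H, 207 RPKM in M1-L, 109 RPKM in M2-H and 56.6 RPKM in M2-L. In the gills it had 32.8 RPKM in G2-H, 85.3 RPKM in G2-L, 38.8 RPKM in G1-H and 42.3 RPKM in G1-L. The highest 3 values were all from mantle, whereas M2-L lay below G2-L, so the tissues overlapped. ALAD (OYG_10007183_10025294) had 88.7 RPKM in M2-H, 56.3 RPKM in M2-L, 159 RPKM in M1-H and 97.7 RPKM in M1-L. Its gill levels were 63.2 RPKM in G2-H, 55.0 RPKM in G2-L, 45.5 RPKM in G1-H and 37.5 RPKM in G1-L. Its 8 values spanned 4.25-fold, while those of ALAS spanned 14.1-fold.

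PBGD OYG_10022618_10024381 had the widest range of the 9 genes, 460-fold. It had 20.7 RPKM (56 reads) in M2-H, 3.12 RPKM (8 reads) in M2-L, 159 RPKM (400 reads) in M1-H and 61.8 RPKM (139 reads) in M1-L. In the gills it had 0.346 RPKM (1 read) in G2-H, 1.82 RPKM (5 reads) in G2-L, 3.08 RPKM (8 reads) in G1-H and 3.50 RPKM (8 reads) in G1-L. M1-H, M1-L and M2-H stood well above every gill library, and M2-L lay within the range of the gills. Its rank among the tested genes spread from the 96.8th percentile in M1-H to the 5.98th in G2-H.

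The other PBGD gene, OYG_10011973_10013600, varied less, 5.89-fold. It had 23.2 RPKM in M2-H, 17.2 RPKM in M2-L, 66.0 RPKM in M1-H and 31.0 RPKM in M1-L, against 11.2 RPKM in G2-H, 17.9 RPKM in G2-L, 21.1 RPKM in G1-H and 16.7 RPKM in G1-L. OYG_10022618_10024381 made up 70.7% of the summed PBGD level in M1-H (95% exact Clopper-Pearson interval 66.8 to 74.4%), 66.6% in M1-L (59.8 to 72.9%) and 47.1% in M2-H (37.9 to 56.5%). It made up 15.3% in M2-L (6.87 to 28%), and in the gills between 2.99% in G2-H and 17.3% in G1-L. Thus the more abundant PBGD gene was OYG_10022618_10024381 in both farm mantles and OYG_10011973_10013600 in M2-L and all 4 gills, while in M2-H the interval included equal levels. These intervals cover counting error only. The authors counted unambiguous tags, and how reads common to the 2 copies would have been divided was not tested.

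**Figure D1:**
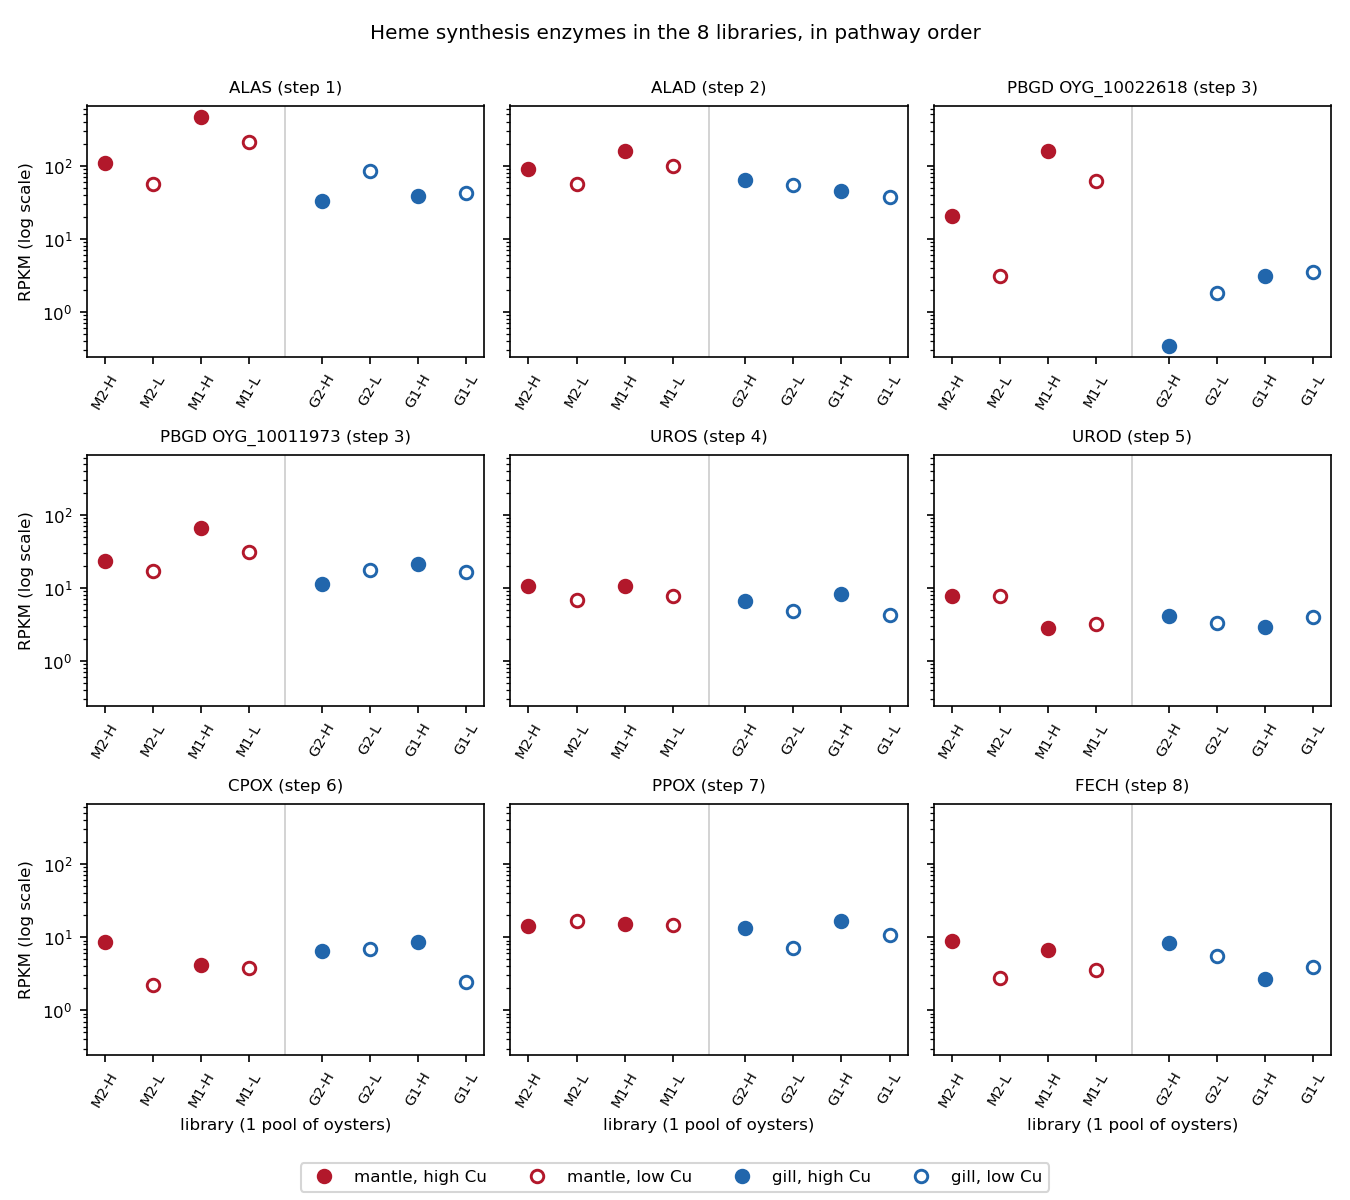
RPKM (log axis) of the 9 heme synthesis genes in the 8 libraries, mantle on the left of each panel and gill on the right, with high Cu filled and low Cu open. Each point is 1 library, so there are no error bars, and PBGD OYG_10022618 spans 0.346 to 159 RPKM while UROS to FECH stay between 2.21 and 16.7 RPKM.

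The enzymes of steps 4 to 8 averaged between 4.50 and 13.5 RPKM over the 8 libraries, against 25.6 to 129 RPKM for the 4 genes of steps 1 to 3. In single libraries the order could differ, as PBGD OYG_10022618_10024381 lay below all 5 late enzymes in G2-H and G2-L. Uroporphyrinogen-III synthase (UROS, OYG_10028893_10011443), which closes the ring, had between 4.21 and 10.7 RPKM. Uroporphyrinogen decarboxylase (UROD, OYG_10021237_10024047), which trims the acetate side chains, had between 2.85 and 7.79 RPKM. Coproporphyrinogen-III oxidase (CPOX, OYG_10019029_10033049) had between 2.21 and 8.70 RPKM. Protoporphyrinogen oxidase (PPOX, OYG_10006854_10039568), which makes the ring fully conjugated, had between 7.22 and 16.7 RPKM. Ferrochelatase (FECH, OYG_10012403_10006527), which inserts the iron, had between 2.68 and 8.84 RPKM. These levels rested on 5 to 56 reads per library, so that most of their differences lay within counting error.

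The split between the early and the late steps was noticed after the values were seen and is described only. Steps 1 to 3 summed to 242 RPKM in M2-H, 133 RPKM in M2-L, 847 RPKM in M1-H and 398 RPKM in M1-L, against 108, 160, 108 and 100 RPKM in G2-H, G2-L, G1-H and G1-L. Steps 4 to 8 summed to 50.1 RPKM in M2-H, 36.2 RPKM in M2-L, 39.6 RPKM in M1-H and 32.8 RPKM in M1-L, against 39.0, 27.8, 38.9 and 25.3 RPKM in the same gill libraries. The early sum thus ranged widely over the libraries while the late sum stayed between 25.3 and 50.1 RPKM. The ratio of the early to the late sum was 21.4 in M1-H and 12.1 in M1-L, and between 2.76 and 5.76 in the other 6 libraries.

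**Figure D2:**
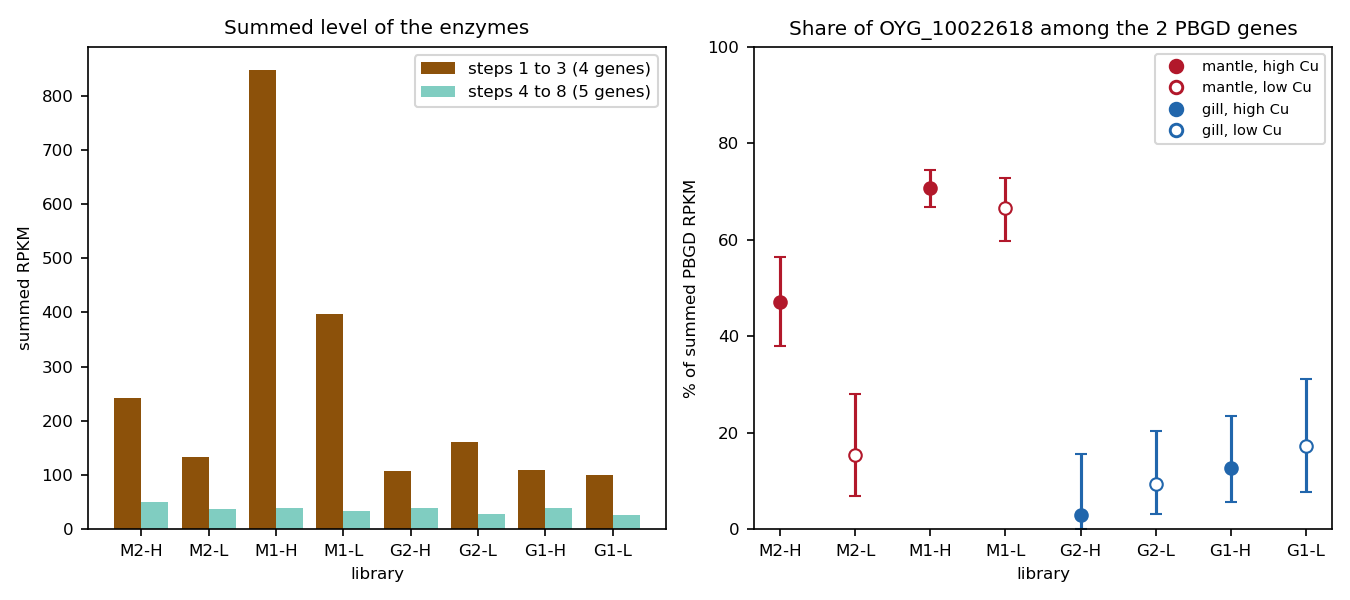
Left, summed RPKM of the 4 genes of steps 1 to 3 (brown) and the 5 genes of steps 4 to 8 (green) in each library, with the early sum reaching 847 RPKM in M1-H and the late sum at most 50.1 RPKM. Right, the percentage of the summed PBGD RPKM that came from OYG_10022618, with exact 95% intervals for counting error, which is above 60% in both farm mantles and under 20% in M2-L and the gills.

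The comparison of high with low Cu asked which genes go with individual differences in Cu accumulation. In the mantle, 7 of the 9 enzymes were higher in H than in L in both pairs, against 35.3% of all tested genes. The gene that chose the set is 1 of the 7, and of the other 8 enzymes 6 were higher in both pairs. With each library centered on its median, the count was 6 of 9, against 27.4% of all genes. Marker sums moved as well, with mantle markers at 2226 RPKM in M2-H against 1333 RPKM in M2-L and 789 RPKM in M1-H against 716 RPKM in M1-L, and gill markers at 1311 against 990 RPKM and 1460 against 1157 RPKM in the same pairs. The summed muscle markers given above were lower in H in M2 and higher in H in M1. The part of these lists in the enzyme values was not tested. No member passed the limma test in the mantle (percentage of all genes called, 0), which had 0 genes called at an adjusted p under 0.05 and 2446 at an unadjusted p under 0.05.

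ALAS was 1.92-fold higher in M2-H than in M2-L, a log2 ratio of 0.95 (95% interval 0.72 to 1.18), and 2.23-fold higher in M1-H than in M1-L, a log2 ratio of 1.16 (1.04 to 1.28). In both pairs the interval excluded equal levels. The log2 difference in limma was 1.05 (SE 0.35, adjusted p = 0.3707). ALAD had log2 ratios of 0.66 (0.33 to 0.98) in M2 and 0.71 (0.45 to 0.96) in M1, and a limma difference of 0.68 (SE 0.24, adjusted p = 0.3911). Both genes therefore lay higher in H in each mantle pair by more than counting error. Their unadjusted limma p-values were 0.02232 for ALAS and 0.03071 for ALAD, and neither passed the adjustment over all genes. The median log2 difference over all tested genes in M2, 0.317, was not subtracted from the M2 values.

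PBGD OYG_10022618_10024381 was 6.62-fold higher in M2-H than in M2-L, a log2 ratio of 2.73 (1.65 to 4.01), and 2.58-fold higher in M1-H than in M1-L, a log2 ratio of 1.37 (1.08 to 1.65). These are the values that chose the gene. It was the only enzyme with a 2-fold higher level in both mantle pairs, a rule passed by 5.02% of all tested genes. ALAS lay just outside that rule, at 1.92-fold in M2. The other PBGD gene had a log2 ratio of 0.43 (-0.14 to 1.01) in M2 and 1.09 (0.68 to 1.51) in M1, so that its M2 interval included equal levels.

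Of the late enzymes, CPOX had 8.70 RPKM in M2-H and 2.21 RPKM in M2-L (25 and 6 reads), but 4.12 RPKM in M1-H and 3.77 RPKM in M1-L. FECH had 8.84 RPKM in M2-H and 2.73 RPKM in M2-L (24 and 7 reads), and 6.75 RPKM in M1-H and 3.55 RPKM in M1-L, where the interval included equal levels. UROD and PPOX did not differ beyond counting error in either mantle pair. Their log2 ratios were -0.01 and -0.16 for UROD and -0.24 and 0.06 for PPOX, in M2 and M1.

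In the gills, 3 of the 9 enzymes (ALAD, UROS and PPOX) were higher in H in both pairs, against 32% of all genes, and 2 (ALAS and PBGD OYG_10022618_10024381) were lower in both, against 22.3% of all genes. Neither share stands far from the background. ALAS was lower in G2-H than in G2-L, with a log2 ratio of -1.38 (-1.66 to -1.11), and in G1 the ratio was -0.12 (-0.45 to 0.20). PBGD OYG_10022618_10024381 had too few gill reads for a direction, since both intervals included equal levels. No enzyme was called by limma in the gills, where 1 gene (0.00497%) was, and the ALAS difference was -0.75 (SE 0.35, adjusted p = 0.9724).

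The 4 pairs were also read by the rule for single pairs of libraries, a Fisher exact test at an FDR of at most 0.001 with a 2-fold ratio, which compares 2 libraries and not 2 conditions. PBGD OYG_10022618_10024381 is left out of M2 and M1, since the values of these pairs chose it. In M2, none of the other 8 enzymes passed, against 14.7% of all genes in either direction. In M1, ALAS and the other PBGD gene were higher, against 3.38% in either direction, with 415 of 22978 genes higher. In G2, ALAS was lower, against 6.27% in either direction, with 753 of 22644 genes lower. In G1, none of the 9 passed, against 1.67% in either direction.

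**Figure D3:**
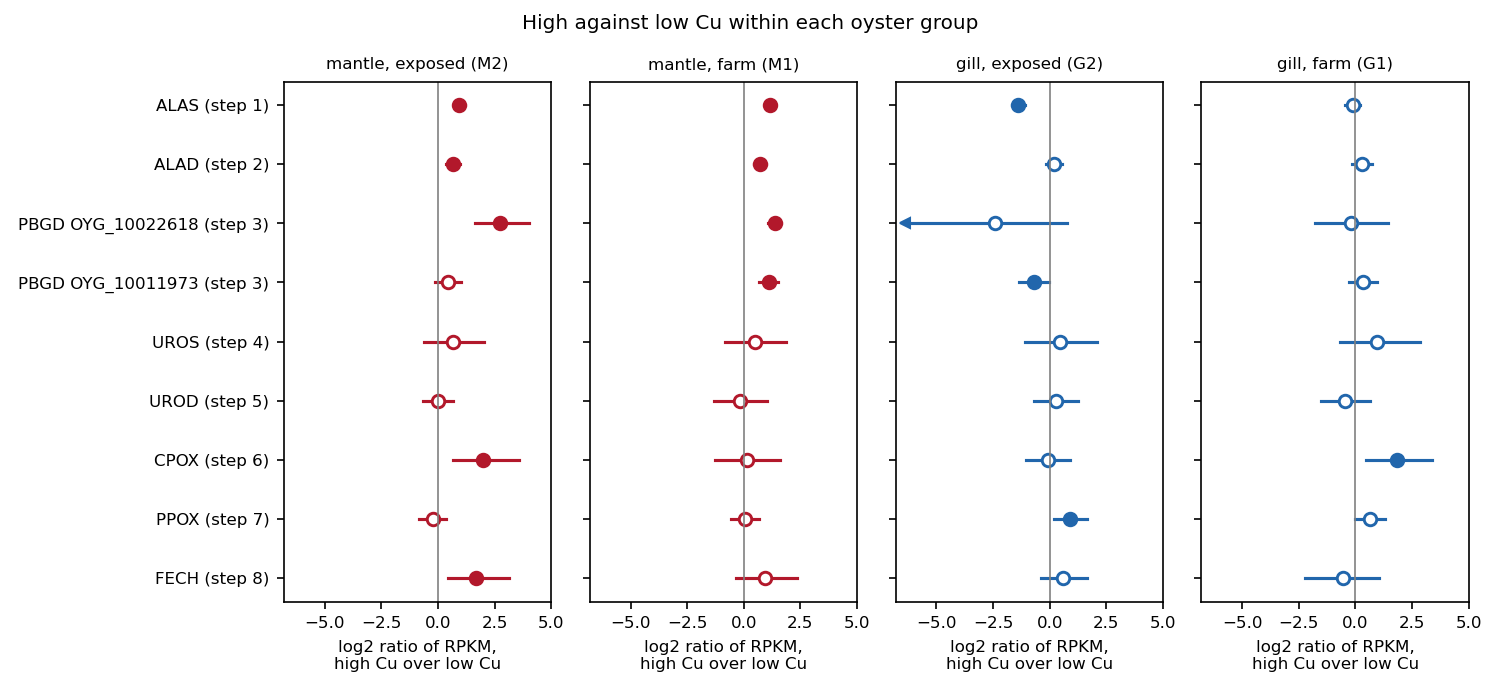
Log2 ratio of RPKM, high over low Cu, for the 9 genes in each pair of libraries, with exact 95% intervals that cover counting error only and filled points where the interval excludes 0; an arrowhead marks an interval that runs past the axis. ALAS and ALAD lie above 0 in both mantle pairs, and ALAS lies at -1.38 in the exposed gills.

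The comparison of exposed with farm oysters was made within each Cu class. In the mantle, the 4 genes of steps 1 to 3 were lower in exposed than in farm oysters in both Cu classes. With UROS, this made 5 of the 9 enzymes, against 33% of all tested genes, and 4 of 9 against 27% after centering. ALAS had 109 RPKM in M2-H against 463 RPKM in M1-H, and 56.6 RPKM in M2-L against 207 RPKM in M1-L, log2 ratios of -2.09 (-2.23 to -1.94) and -1.87 (-2.09 to -1.66). PBGD OYG_10022618_10024381 had log2 ratios of -2.94 (-3.37 to -2.54) in the H class and -4.31 (-5.55 to -3.29) in the L class. ALAD had -0.84 and -0.80, and the other PBGD gene -1.51 and -0.85, and all of these intervals excluded equal levels. The median log2 difference over all tested genes was 0.0 in the H class and -0.259 in the L class.

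The limma differences in the mantle were -1.98 for ALAS (SE 0.35, unadjusted p = 0.001129, adjusted p = 0.472) and -3.60 for PBGD OYG_10022618_10024381 (SE 0.65, unadjusted p = 0.001331, adjusted p = 0.4768). Neither passed after adjustment, and 0.00497% of all genes did. Limma voom on the recovered reads, a fit added after the data were seen, called 53 of the 20123 tested genes, 44 higher and 9 lower. ALAS (adjusted p = 0.04959) and PBGD OYG_10022618_10024381 (adjusted p = 0.03648) were among the 9 lower. The high against low values that chose PBGD OYG_10022618_10024381 came from these same mantle libraries, so its p-values here are not free of that choice. UROD alone was higher in exposed than in farm mantle in both Cu classes, 1 of the 9 enzymes against 21.1% of all genes, with 7.75 RPKM in M2-H against 2.85 RPKM in M1-H and 7.79 RPKM in M2-L against 3.19 RPKM in M1-L, and both intervals excluded equal levels. Its limma difference was 1.34 (SE 0.58, adjusted p = 0.5498). Summed muscle markers were also lower in the exposed than in the farm mantles, at 2930 against 5909 RPKM in the H class and 3509 against 4258 RPKM in the L class. Mantle markers summed higher in the exposed mantles, at 2226 against 789 RPKM in the H class and 1333 against 716 RPKM in the L class. The part of either list in the ALAS and PBGD values was not tested.

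In the gills, ALAD and FECH were higher in exposed oysters in both Cu classes, 2 of the 9 enzymes against 31.3% of all genes. PBGD OYG_10022618_10024381 and PPOX were lower in both, 2 of the 9 against 30.1%. For this PBGD gene the log2 ratios were -3.15 (-8.62 to -0.25) in the H class, on 1 read in G2-H against 8 in G1-H, and -0.94 (-2.90 to 0.85) in the L class, and its limma difference was -1.87 (SE 0.65, unadjusted p = 0.02758, adjusted p = 0.409). ALAD had 63.2 RPKM in G2-H against 45.5 RPKM in G1-H and 55.0 RPKM in G2-L against 37.5 RPKM in G1-L, log2 ratios of 0.47 (0.11 to 0.84) and 0.55 (0.14 to 0.98). ALAS was 2.02-fold higher in G2-L than in G1-L, while the H class gave a log2 ratio of -0.24 (-0.57 to 0.08). Limma called none of the enzymes in the gills and 0.0845% of all genes.

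**Figure D4:**
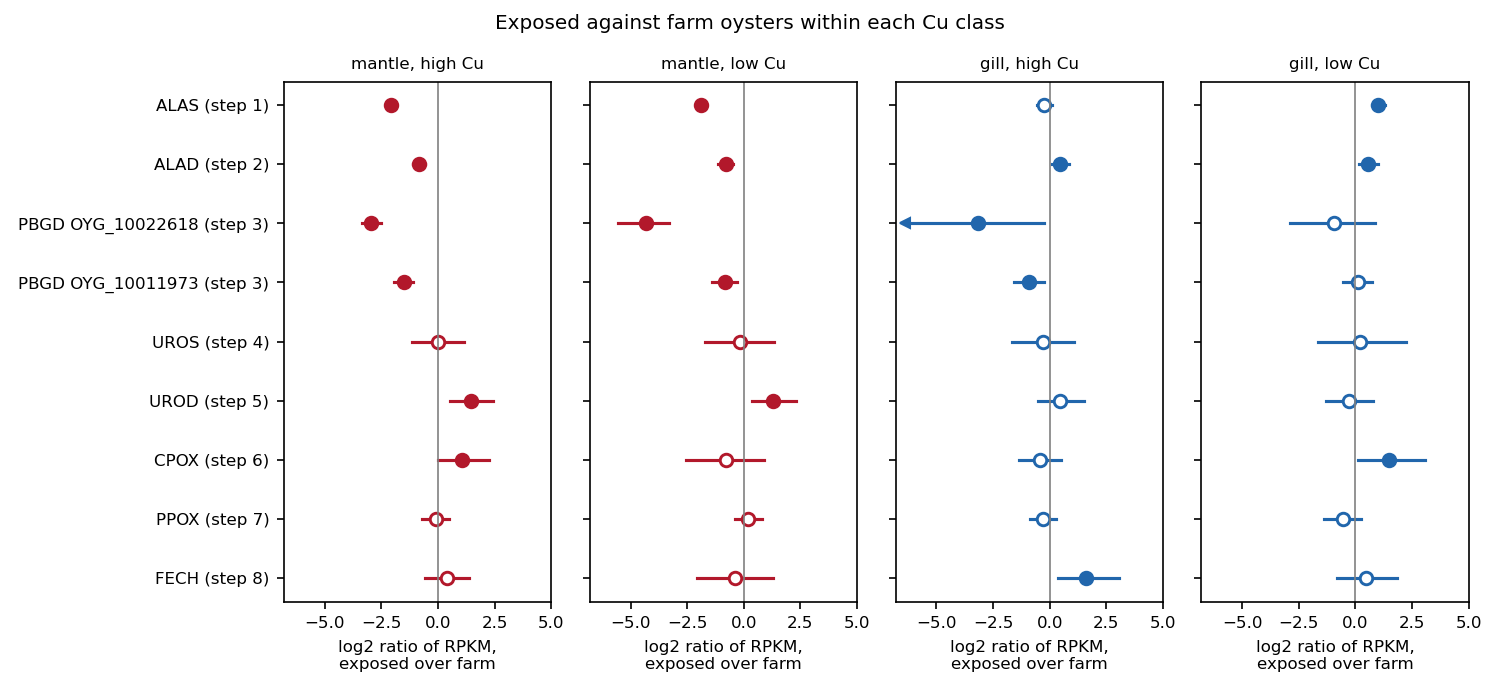
Log2 ratio of RPKM, exposed over farm oysters, for the 9 genes within each Cu class, with exact 95% intervals for counting error and filled points where the interval excludes 0; an arrowhead marks an interval that runs past the axis. ALAS, ALAD and both PBGD genes lie below 0 in both mantle panels, and ALAD lies above 0 in both gill panels.

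Between the tissues, PBGD OYG_10022618_10024381 was the only enzyme that passed the limma test. This gene was chosen from high against low values of the same mantle libraries, so its test is not free of that choice. Its log2 level was 4.01 higher in mantle than in gill (SE 0.80, adjusted p = 0.01841), and it was higher in mantle in 4 of 4 oyster pools. In the exposed L pool it had 8 reads in M2-L against 5 in G2-L, and the interval of that ratio included equal levels. Over all tested genes, 5.67% were called higher in mantle and 9.18% lower in mantle, with a median difference of -0.21. The call was lost without the farm H pool (adjusted p = 0.08693), without the farm L pool (0.09282) and without the exposed H pool (0.08715), and held without the exposed L pool, where the difference was 5.10 (adjusted p = 0.001476).

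Including this gene, 3 of the 9 enzymes (with ALAD and UROS) were higher in mantle in all 4 pools, against 14.6% of all genes, and with centering 5 were, against 20%. ALAS was 3.32-fold higher in M2-H than in G2-H, 11.9-fold higher in M1-H than in G1-H and 4.90-fold higher in M1-L than in G1-L. In the exposed L pool ALAS was lower in mantle, with a log2 ratio of -0.59 (-0.83 to -0.35, counting error only). The median log2 difference over all tested genes in that pool was -0.39. The limma differences were 1.75 for ALAS (SE 0.59, adjusted p = 0.1009), 0.93 for ALAD (SE 0.31, adjusted p = 0.1009) and 0.88 for the other PBGD gene (SE 0.31, adjusted p = 0.1072). Without the exposed L pool these 3 genes also passed, at adjusted p-values of 0.01086, 0.04166 and 0.02477. In that fit 989 of the 20123 tested genes were called higher in mantle. The late enzymes had differences between -0.41 (CPOX) and 0.59 (UROS), none of which passed.

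Other genes that handle heme, its precursors or mitochondrial iron were taken from a list of 36 genes, of which 32 passed the filter. In the mantle, none was called for high against low Cu, and 17 had differences above 0 against 59.1% of all tested genes. Their median was 0.01, beside 0.18 over all tested genes and 0.72 over the 8 enzymes other than PBGD OYG_10022618_10024381, and the difference between the lists was not tested. In the gills 16 of the 32 were above 0, against 56.9% of all genes, and in mantle against gill 18 were, against 38.6%. Exposure had 14 of 32 above 0 in the mantle, against 41% of all genes, and 15 in the gills, against 50.6%, and no listed gene was called for exposure.

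The 1 gene of the list called by limma was biliverdin reductase A (OYG_10021729_10017011), which reduces the first product of heme breakdown. It had 18.0 RPKM in M2-H, 4.76 RPKM in M2-L, 36.4 RPKM in M1-H and 20.1 RPKM in M1-L, against 8.02 RPKM in G2-H, 1.33 RPKM in G2-L, 4.69 RPKM in G1-H and 5.33 RPKM in G1-L. It was higher in mantle than in gill in each of the 4 pools, by 1.94 on the log2 scale (SE 0.37, adjusted p = 0.0146). In the exposed L pool it had 10 reads in M2-L against 3 in G2-L, and the interval of that ratio included equal levels. The call was lost without the farm H pool (adjusted p = 0.06825), without the farm L pool (0.07483) and without the pool as a block (0.09686).

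Of the 32 listed genes, 3 were 2-fold higher in both mantle pairs, against 5.02% of all genes, and 2 were 2-fold lower in both gill pairs, against 3.13%. A gene for ABCB6 (OYG_10012380_10019027), a transporter first described for porphyrins, had 3.27 RPKM in M2-H, 0.690 RPKM in M2-L, 16.7 RPKM in M1-H and 6.88 RPKM in M1-L, and between 0.306 and 1.35 RPKM in the gills. Its H over L log2 ratios were 2.24 (0.67 to 4.25) in M2 and 1.28 (0.71 to 1.88) in M1. A heme-binding protein 2 gene (OYG_10011388_10040701) and mitoferrin-1 (OYG_10023230_10040099), the mitochondrial iron importer, also passed 2-fold upward in the mantle, but on 3 against 1 and 8 against 2 reads, and on 4 against 0 and 4 against 1 reads, in M2 and M1. None of these intervals excluded equal levels. The other ABCB6 gene (OYG_10027528_10014693) did not pass the rule. Its log2 ratios were 2.556 (1.733 to 3.486) in M2 and -0.125 (-0.781 to 0.532) in M1.

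In the gills, another heme-binding protein 2 gene (OYG_10025130_10037600) was 2-fold lower in H in both pairs, with 0.674 RPKM in G2-H against 11.3 RPKM in G2-L and 9.74 RPKM in G1-H against 40.0 RPKM in G1-L. Its limma difference was -2.96 (SE 0.60, adjusted p = 0.6405). An adrenodoxin-like gene (OYG_10008528_10023436), an electron carrier, passed the same rule on 2 against 5 reads in each gill pair. The mitochondrial glycine carrier SLC25A38 (OYG_10028762_10022423), needed for the first step, was chosen after its values were seen. It had 112 RPKM in G2-H and 280 RPKM in G2-L, a log2 ratio of -1.33 (-1.56 to -1.10), beside -1.38 for ALAS in the same pair, whereas in the mantle its ratio was -0.54 in M2 and 0.32 in M1.

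Likeness to PBGD OYG_10022618_10024381 was measured as Pearson's r of log2(RPKM + 0.1) over the 8 libraries, which share their tissue and depth differences. Of 14157 genes ranked, those with a mean of at least 5 RPKM, the 5 most like it were a hypothetical protein (OYG_10006609_10023623, r = 0.985), an L-ascorbate oxidase (OYG_10020885_10039411, 0.983), transcription factor E3 (OYG_10011854_10006442, 0.974), the nuclear hormone receptor HR38 (OYG_10010783_10005163, 0.951) and another hypothetical protein (OYG_10019532_10040778, 0.942). Transcription factor E3 had 23.4 RPKM in M2-H, 2.60 RPKM in M2-L, 80.5 RPKM in M1-H and 40.3 RPKM in M1-L, and between 0.576 and 2.18 RPKM in the gills. The L-ascorbate oxidase had 15.0, 4.62, 73.4 and 25.9 RPKM in the same 4 mantle libraries and between 0.256 and 2.58 RPKM in the gills. All 5 were highest in M1-H, and M2-L was the lowest of their mantle libraries. PBGD OYG_10022618_10024381 has the same order, and the 5 were chosen for their likeness to it, so this is no separate result.

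Among the genes of heme metabolism, ABCB6 OYG_10012380_10019027 had r = 0.974, the other PBGD gene 0.936 and ALAS 0.919, while 0.303% of 20122 genes had r of at least 0.9. The other ABCB6 gene, OYG_10027528_10014693, had -0.072. Heme-binding protein 2 OYG_10011388_10040701 had 0.820 on few reads, ALAD 0.796 and biliverdin reductase A 0.773. The other tested heme-binding protein 2 genes had 0.612 and 0.418. The late enzymes had 0.625 (UROS), 0.325 (PPOX), 0.067 (FECH), -0.148 (CPOX) and -0.168 (UROD). These are descriptions over 8 libraries and carry no test.

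**Figure D5:**
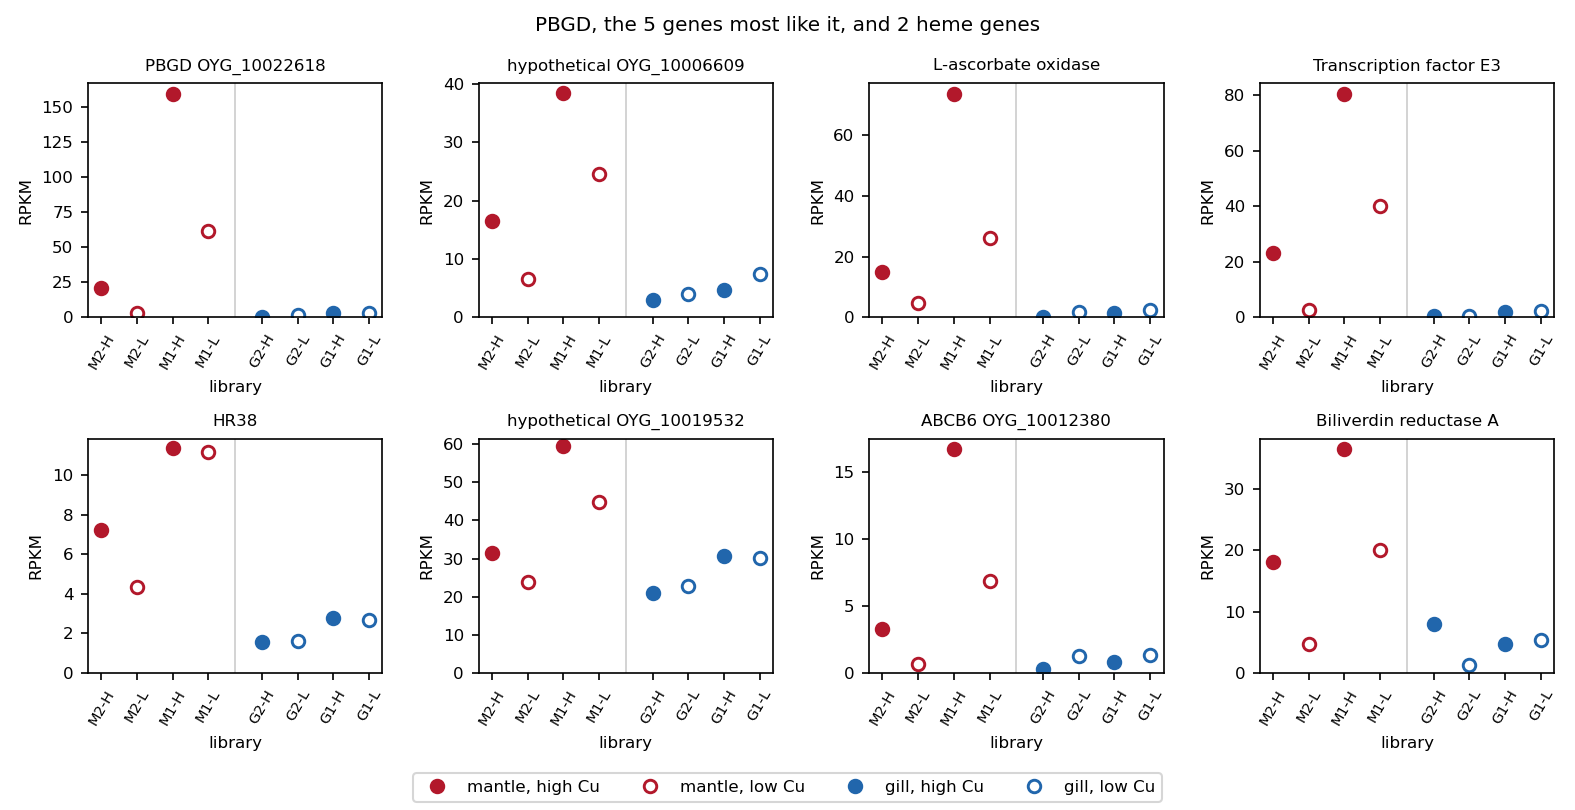
RPKM (linear axes from 0, scaled panel by panel) of PBGD OYG_10022618, the 5 genes most like it over the 8 libraries among those with a mean of at least 5 RPKM, ABCB6 OYG_10012380 and biliverdin reductase A, with mantle left and gill right and high Cu filled. Each point is 1 library, and in every panel the highest value is M1-H, which for the 5 genes goes with how they were chosen.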

How the data were processed

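Digital gene expression profiles were made from 8 libraries, each of 6 pooled oysters. The labels gave tissue and Cu class. How oysters were exposed and pooled was taken from the methods of the study. The authors filtered tags, mapped them to the *Crassostrea gigas* genome with TopHat (tophat2 in the methods) and counted unambiguous tags per gene, and Cufflinks is named for the comparison of libraries. Further version numbers and an assembly name are not given in the sources used here. The deposited values are RPKM, and a dash was read as 0.

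Whole reads were recovered from the steps of the RPKM values for 100% of 25181 genes, and lengths came out whole (tolerance 0.005) for 99.98% of them. As 99.8% were multiples of 3, they are coding lengths. Limma 3.58.1 in R 4.3.3 was fitted with a trend to log2(RPKM + 0.1) of the 20123 genes that averaged 1 RPKM or more, with Benjamini-Hochberg adjustment over all of them and a threshold of 0.05. Fold changes on this scale understate those of low genes. High against low Cu had the oyster group as block, tissue the oyster pool, and exposure the Cu class. Ratios of 2 libraries have exact Clopper-Pearson intervals from recovered reads. Python 3.11.15 with scipy 1.17.1 was used. The main fits of the 5 contrasts of the design were run on simulated data. The alternative settings and the 2 added contrasts were not.

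The limma p-values rest on the disagreement between pairs of libraries, since no condition had replicate pools. For high against low Cu the pairs were exposed and farm oysters, for exposure the H and L classes, and for tissue the oyster pools. Variation between pools of one condition was not measured. The blocks follow the comparisons of the study. Deviations of same-numbered high and low libraries correlated at 0.194 in gill and 0.0904 in mantle, those of mantle and gill of a pool at 0.0925 to 0.252, and those of exposed and farm libraries of a Cu class at 0.0722 and 0.0966, so the numbers alone do not show pairing.

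Members and lists were chosen with earlier results of these data known. Named were all members, listed heme genes past 2-fold in both pairs of a tissue or past a limma threshold, and the 5 genes most like PBGD among those that averaged 5 RPKM or more. A term for ferredoxin-fold proteins was dropped from the list on annotation text after the files were opened, and iron storage, planned for the list, was not analysed here. Search terms for heme oxygenase and for translocator protein returned no gene. Voom had been planned only for the members in mantle against gill. Voom counts over all genes, voom for the other contrasts, and 2 contrasts of the difference between tissues, were added after the data were seen, which made 86 fits over 7 contrasts. None of the 9 member IDs was found in the RefSeq gene table (0 of 9), so no positions or sequences are given.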

Additional observations from a re-analysis of the deposited data

Results flagged for a closer look

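For 3 results, the point estimates of both mantle pairs lay on one side of 0 and those of both gill pairs on the other. ALAS was higher in high-Cu than in low-Cu mantle and lower in high-Cu than in low-Cu gill, a difference between the tissues of 1.80 on the log2 scale (limma, SE 0.49, unadjusted p = 0.009934, adjusted p = 0.9135), and the G1 ratio alone lay within counting error. The same difference for PBGD OYG_10022618_10024381 was 3.17, given without its p-value because the mantle values chose the gene. Its gill values rest on 1 to 8 reads with both intervals including equal levels, so that no opposite direction is shown for it. ALAD was lower in exposed than in farm mantle and higher in exposed than in farm gill, a difference of -1.33 (limma, SE 0.35, unadjusted p = 0.007834, adjusted p = 0.7418). Neither the ALAS nor the ALAD difference passed the adjustment over all genes.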

How the results depend on the processing

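With 1 library per condition, depth limits the late enzymes and the gill values of PBGD OYG_10022618_10024381, which rest on 1 to 56 reads per library. High against low Cu in mantle had 0 genes called under every alternative with a test. In gill the count of 1 became 2 with a pseudocount of 0.01, 3 at a mean RPKM of at least 5, and 0 with no filter, centered libraries, no replicate block, no trend, voom or the tissue alone. Exposure in gill (17) gave 3 with a pseudocount of 1 or with voom, 6 with no filter, 36 at a mean RPKM of at least 5, 10 with no replicate block, and 0 without the trend or with the tissue alone. Exposure in mantle (1) gave 2 with a pseudocount of 1, 53 with voom, and 0 with a pseudocount of 0.01, no filter, centering, no replicate block, no trend or the tissue alone. Mantle against gill (2987) gave 1277 to 2595 when each oyster pool was left out. Of the enzymes, 3 were called with centering, 2 with quantile normalization, 0 without the trend (PBGD OYG_10022618_10024381, adjusted p = 0.05774), and 0 to 4 with each pool left out. Over all 20123 genes tested, 1386 were called higher in mantle with centering, 1291 with quantile normalization and 900 without the trend. With each pool left out, 537 to 989 were. Without the pool as a block the 1 enzyme called was again PBGD OYG_10022618_10024381 (adjusted p = 0.03886). No call of an enzyme depended on the block in any contrast, and only that of biliverdin reductase A did among the named heme genes in mantle against gill.

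Counts of genes 2-fold higher and lower in both mantle pairs (1010 and 594) were 237 and 164 at a log2 threshold of 2, 627 and 348 with a pseudocount of 1, and 545 and 232 at a mean RPKM of at least 5. In gill (464 and 630) they were 112 and 221, 262 and 355, and 161 and 318. Single pairs past a log2 ratio of 2 had 1190 (M2), 289 (M1), 522 (G2) and 157 (G1) genes. Differences near 0 changed sign for FECH in gill high against low Cu (-0.05 with centering and -0.05 with quantile normalization), for FECH in mantle against gill with each pool left out (-0.34 to 0.42, negative without the farm H pool), and for UROS under exposure (0.02 in gill with quantile normalization, 0.08 and 0.09 in mantle with centering and quantile normalization). With 1 pair left out, 13 further differences changed sign, among them ALAS under exposure in gill (-0.24 without the low-Cu libraries). They have no test and none had been called. The cause of these changes was not tested.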
